A study of Daphnia sinensis with 8 samples.

Results

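Of the 11114 unigenes listed for *D. sinensis*, a cladoceran water flea, 200 made up the set of unigenes peaking in juvenile females. The juvenile females (JF) were compared with males (M), sexual females (SF) and parthenogenetic females (PF), with 2 libraries of poly-A RNA in each stage and each library made from a pool of whole animals. A JF pool held about 500 neonates with a birth time under 12 h, a male pool about 60 animals and a pool of SF or PF about 50. The samples M, SF and PF were labelled as adults of 2 to 3 weeks. The methods describe SF as females with resting eggs and PF as females with their first clutch. The male age is given there as up to 12 h after birth, yet male juveniles were also kept for 2 weeks in a beaker of their own. No source says whether the 2 pools of a stage came from separate cultures, so the p-values below measure the spread between these pools, which may be technical. All stages came from 1 lake collection and the same green alga as food, but JF were the offspring of 20 singly kept mothers, whereas M, SF and PF came from beakers with 10 mothers each, where the density had risen. Age, culture and stage therefore cannot be told apart in any difference between JF and the other stages.

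Neonates of *Daphnia* leave the brood chamber of the mother as small free-swimming animals with the adult body plan. They grow through a series of moults, in which the chitinous exoskeleton is shed and rebuilt, before the ovary matures and eggs pass into the brood chamber. Adult females carry either subitaneous eggs, which develop at once, or resting eggs, and males arise from the same clonal genome by an environmental cue. A unigene here is a cluster of assembled transcripts that stands for a gene. The paper reports that a small part of its unigenes matched other organisms, such as *Tetrahymena thermophila*. Whether each member is a gene of *D. sinensis* was not tested. The IDs of the members come from the authors' own transcript assembly and had no gene name in the sources used here. Such IDs are not RefSeq names, so a search for them in the RefSeq gene table of the *D. sinensis* assembly (0 of 200 found) could not match them to genes. The unigenes were not compared with that table by sequence, so no role can be given to a single member.

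Expression is given as CPM, the count of a unigene per 1000000 counts of its library. Total counts were between 17172891 and 27160267 per library, and no listed unigene had a value of 0 in any library. *Doublesex2* (Cluster-5789.12340), a gene of the doublesex family of sex-determining transcription factors, is given as a reference for the male label. The paper took it from the unigenes most raised in males in these same data. By quantitative PCR it then found the gene higher in males than in JF, PF and SF. Its level in these libraries is still no independent check of their labels, and it does not separate JF, SF and PF. Males had 220.0 and 214 CPM of it, against 5.78 and 4.01 CPM in JF and between 3.41 and 6.35 CPM in SF and PF. With whole animals in the libraries, a larger number of cells of a kind and more RNA per cell cannot be told apart.

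The members were chosen from the values themselves. The mean of JF had to be at least 5 CPM and to be the highest of the stages, and the largest log2 gap between neighbouring stage means had to lie directly below JF. The ratio of the lower JF library to the highest library of any other stage had to be at least 2, and the 200 unigenes with the highest ratios were kept. JF had the highest mean in 3725 of the 11114 unigenes, 1577 unigenes also met the level and the gap, and 465 of them had a ratio of at least 2. The other 265 of these 465 were below the kept ones in ratio. The same rule with another stage in the place of JF gave 164 unigenes for M, 28 for SF and 33 for PF at a ratio of at least 2. The highest single ratio was 13.2 in JF, against 64.0 in M, 27.8 in SF and 30.4 in PF. Among the listed unigenes, the JF set was thus the most numerous of the 4, while its highest ratio was the lowest of the 4. No listed unigene had a value of 0 in any library, so unigenes without reads in a stage could enter neither ranking. The paper assembled more unigenes than are listed here. At its own expression threshold it counted more unigenes specific to JF than to any other stage. Everything that follows on JF against the other stages describes these choices and was not tested.

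The members took 5.06% and 5.78% of all counts in the JF libraries. They took 0.961% and 0.965% in M, 0.884% and 0.758% in SF, and 0.625% and 0.677% in PF. As stage means the shares were 5.42% ± 0.506 in JF, 0.963% ± 0.00275 in M, 0.821% ± 0.0893 in SF and 0.651% ± 0.0367 in PF (SD, n = 2 libraries each). A few members carried much of this sum in JF. The 2 members with the highest JF mean held 17.4% of the summed JF level of all members, and the 10 highest held 37.5%. Of the 100 unigenes with the highest mean in JF, 8 were members, whereas 0 members were among the 100 highest in M, SF or PF.

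**Figure D1:**
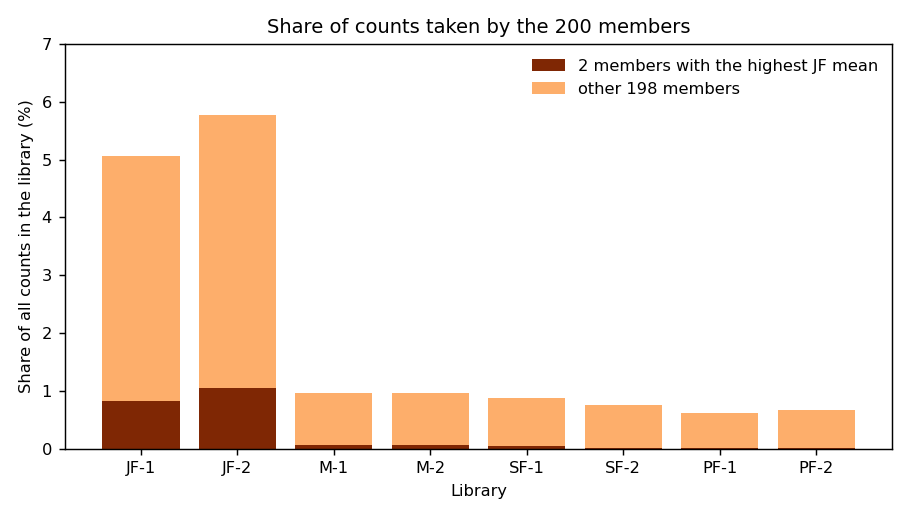
Share of all counts of a library, in percent, that fell on the 200 members, with 1 bar for each of the 8 libraries. The dark part of a bar stands for the 2 members with the highest JF mean and the light part for the other members. The JF bars stand at 5.06% and 5.78%, and every other bar is under 1%.

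The JF means of the members covered a wide range, with a median of 106 CPM and values from 5.13 to 5739 CPM. The mean of JF exceeded that of M by 3.02- to 30.8-fold, with a median of 4.72-fold. Against SF the fold was between 2.84 and 32.4 with a median of 5.47, and against PF it was between 3.10 and 115 with a median of 6.43. Over the 7867 unigenes with a JF mean of at least 5 CPM the median fold was 1.20 against M, 1.10 against SF and 1.15 against PF. A fold above 10 was found for 15 members against M, 22 against SF and 38 against PF. The largest folds were thus set against parthenogenetic females. The 44 members under 20 CPM in JF had a median ratio of 3.32, the 54 members from 20 to 100 CPM one of 3.36, the 92 members from 100 to 1000 CPM one of 3.64 and the 10 members with 1000 CPM and more one of 7.23.

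**Figure D2:**
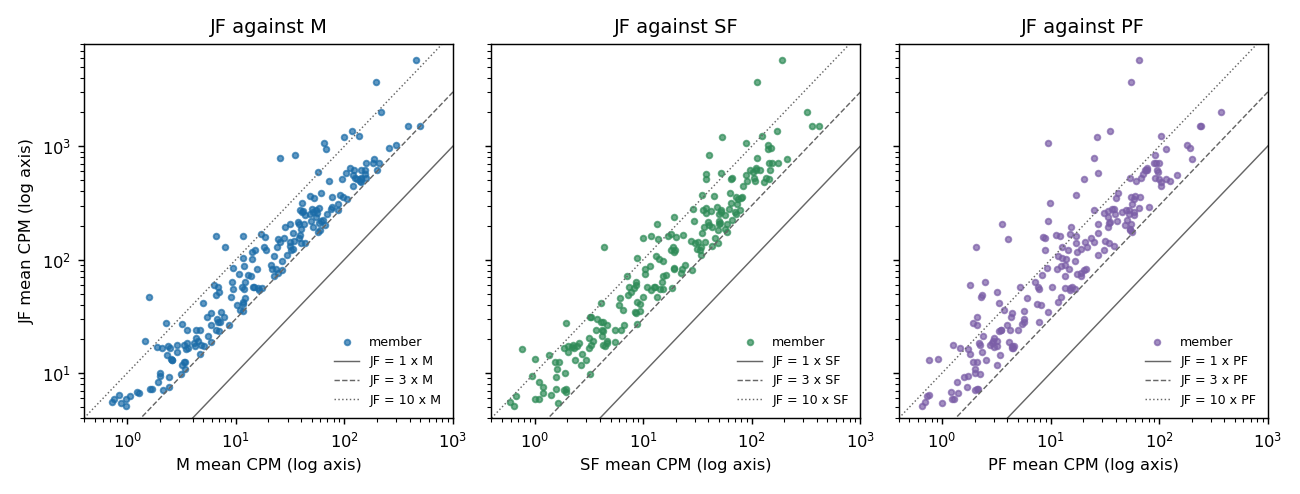
Mean CPM of the 200 members in JF (y axis) against the mean in M, SF and PF (x axis, 1 panel each), on log axes. Lines mark equal means and 3-fold and 10-fold higher means in JF. Points lie between 3.02- and 30.8-fold above equality against M, and up to 115-fold above it against PF.

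The highest ratios belonged to 3 abundant unigenes whose levels in the other stages were graded. Cluster-5789.6752 had 2612 and 4729 CPM in JF, against 198 and 197 CPM in M, 131 and 95.7 CPM in SF, and 56.4 and 54.3 CPM in PF. Its lower JF library was 13.2 times as high as its highest other library, which was a male one. Cluster-5789.6177 had 5641 and 5838 CPM in JF, against 466 and 459 CPM in M, 295 and 82.9 CPM in SF, and 66.0 and 65.8 CPM in PF. It was the most abundant member and ranked 4 among all unigenes by JF mean, and its JF mean was 12.4 times that of M and 87.1 times that of PF. Cluster-5789.6214 had 1157 and 1275 CPM in JF, against 99.6 and 98.4 CPM in M, 61.8 and 45.5 CPM in SF, and 17.1 and 36.5 CPM in PF. In all 3 unigenes both male libraries were above every SF library, and both SF libraries were above every PF library. The edgeR test below called all 3 higher in M than in PF, with log2 fold changes of 1.92, 2.90 and 2.00 (adjusted p = 0.00315, 0.00832 and 0.00318). In M vs SF it called none of them (0.84, 1.30 and 0.92 in log2, adjusted p = 0.0774, 0.116 and 0.0663), and neither in SF vs PF (1.08, 1.60 and 1.08, adjusted p = 0.0501, 0.0900 and 0.0567).

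The next 3 members in order of ratio were of another kind, with nearly level values outside JF. Cluster-5789.6506 had 152 and 175 CPM in JF, and its 6 other libraries lay between 11.4 and 13.2 CPM. Cluster-5789.10456 had 25.2 and 29.6 CPM in JF, against 2.30 and 2.30 CPM in M, 2.18 and 1.68 CPM in SF, and 1.72 and 2.10 CPM in PF. Cluster-5789.3206 had 160 and 178 CPM in JF, and between 13.9 and 18.6 CPM elsewhere. In these 3 unigenes the libraries of M, SF and PF overlapped or lay within a narrow band, and no comparison among them was called. The members that followed were mixed. Cluster-5789.6852, Cluster-5789.11851 and Cluster-5789.5143, described below, had unequal means in M, SF and PF. Cluster-5789.1459 had 42.1 and 40.7 CPM in JF and between 2.56 and 5.01 CPM in the other libraries. Cluster-5789.6707 had 1049 and 1407 CPM in JF and between 76.2 and 139 CPM elsewhere. Over all members, the highest of the means of M, SF and PF was a median of 1.70 times the lowest, and in 73 members less than 1.5 times. The median over the 7867 unigenes with a JF mean of at least 5 CPM was 1.91, but the rule limits this spread in members.

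**Figure D3:**
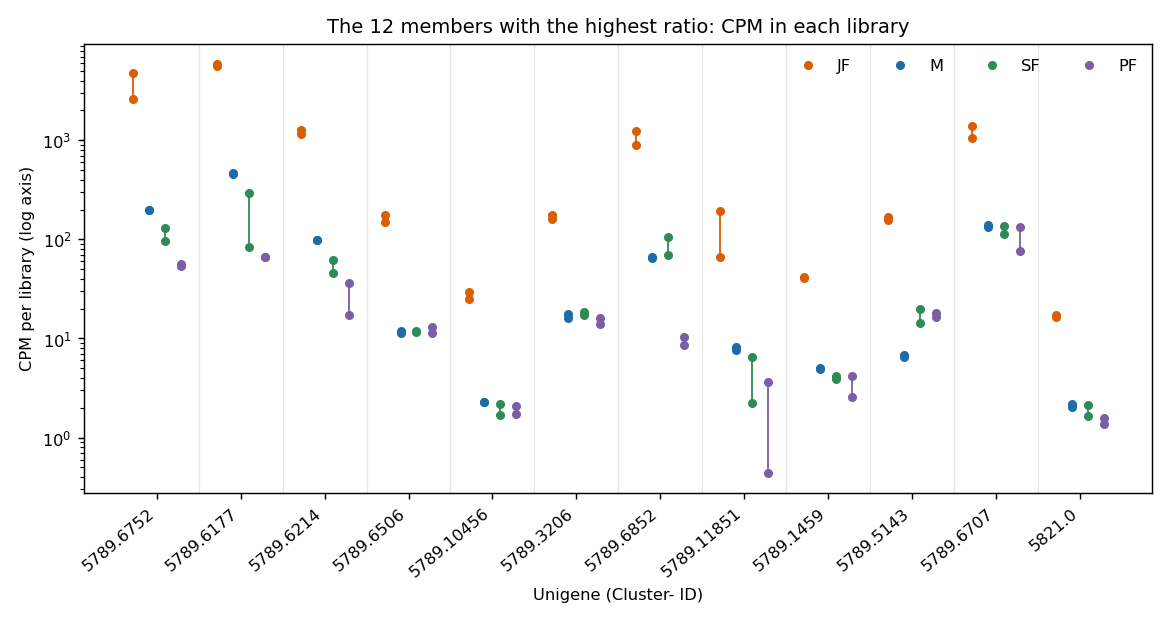
CPM of the 12 members with the highest ratio, in each of the 8 libraries, on a log axis. A point is a library and a line joins the 2 libraries of a stage. Every JF pair lies above all other points, from 16.5 and 17.1 CPM in Cluster-5821.0 to 5641 and 5838 CPM in Cluster-5789.6177.

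Cluster-5789.6852 and Cluster-5789.4865 were 2 of 13 members (6.5%, beside 6.27% of all tested unigenes) that the edgeR test below called lower in PF than in both M and SF, without a call in M vs SF. Cluster-5789.6852 had 907 and 1254 CPM in JF, 65.9 and 64.9 CPM in M and 106 and 69.8 CPM in SF, but 8.53 and 10.2 CPM in PF, and its JF mean was 115 times that of PF, the highest such fold of any member. Cluster-5789.4865 had 1229.85 and 1475 CPM in JF, 115 and 122 CPM in M, 165 and 178 CPM in SF, and 31.6 and 39.5 CPM in PF. The JF libraries were separate from all others in both, and the PF libraries were separate from those of M and SF. Cluster-5789.5143 was the reverse case among males, with 158 and 168 CPM in JF, 6.50 and 6.75 CPM in M, 19.8 and 14.2 CPM in SF, and 18.0 and 16.4 CPM in PF.

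Other abundant members had smaller ratios. Cluster-5789.5283 had 1983 and 2026 CPM in JF, against 217 and 223 CPM in M, 363 and 285 CPM in SF, and 314 and 435 CPM in PF. Its PF mean was above its SF mean, but the libraries of these stages overlapped. Cluster-5789.6893 had 1402 and 1629 CPM in JF and between 226 and 499 CPM in the other libraries, and Cluster-5789.6165 had 1453 and 1564 CPM in JF and between 234 and 389 CPM elsewhere. In these 2 unigenes the male libraries were the highest of the other stages and the PF libraries the lowest.

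The end of the list was not marked by a gap. The last 2 members were Cluster-5789.6696, with 36.7 and 33.7 CPM in JF and between 5.12 and 12.0 CPM elsewhere (ratio 2.81), and Cluster-5789.7282, with 104 and 118 CPM in JF and between 23.9 and 37.1 CPM elsewhere (ratio 2.80016). The first 2 unigenes below them were Cluster-5789.8814, with 213 and 247 CPM in JF and at most 76.1 CPM elsewhere (ratio 2.80006), and Cluster-5789.7185, with 516 and 633 CPM in JF and at most 185 CPM elsewhere (ratio 2.79681). Ratios of at least 5 were found in 31 members and of at least 4 in 69.

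The JF libraries themselves differed little in most members. The median absolute log2 ratio between JF-1 and JF-2 was 0.17 in members, against 0.15 over the 7867 unigenes with a JF mean of at least 5 CPM. Members were higher in JF-2 in 151 of 200 cases (75.5%), against 51.3% of those 7867 unigenes, and their median log2 ratio of JF-1 to JF-2 was -0.14. A single member (0.5%), Cluster-5789.11851, was over 2-fold apart, beside 3.79% of those 7867 unigenes. The rule takes the lower JF library, which limits how far the JF libraries of a member can lie apart. It had 193 CPM in JF-1 and 67.1 CPM in JF-2, against 8.19 and 7.72 CPM in M, 6.57 and 2.23 CPM in SF, and 0.441 and 3.67 CPM in PF, so that its libraries also differed widely within SF and PF. Cluster-5789.6752 (2612 and 4729 CPM) and Cluster-5789.6717 (647 and 389 CPM) followed, in opposite directions. In the same members the median absolute log2 ratio between replicates was 0.07 in M, 0.27 in SF and 0.31 in PF, and over the 7867 unigenes it was 0.05 in M, 0.25 in SF and 0.28 in PF. The order of the stages was the same in both.

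**Figure D4:**
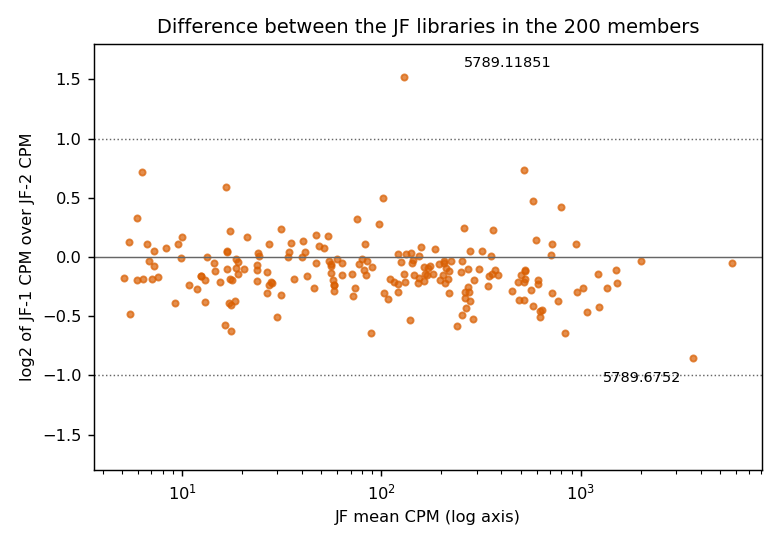
Log2 ratio of JF-1 to JF-2 for the 200 members (y axis) against their mean CPM in JF (x axis, log). The dotted lines mark a 2-fold difference, past which only Cluster-5789.11851 lies, and 151 points are below 0.

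Outside JF, males had the highest mean in 100 of the members, and a female stage in the other 100. M was the next stage after JF for 100 members (50.0%), SF for 68 (34.0%) and PF for 32 (16.0%). In the 7867 unigenes with a JF mean of at least 5 CPM, the highest of these 3 stages was M in 36.2%, SF in 21.4% and PF in 42.3%. PF was the lowest stage of members in 116 cases (58.0%), SF in 55 (27.5%) and M in 29 (14.5%), whereas among the 7867 unigenes PF was lowest in 33.0%, SF in 24.0% and M in 43.0%. The share of members with PF as the lowest stage was thus 58.0%, beside 33.0%, which is a description without a test of the lists. The rule divides by the highest single library and so admits a stage with a wide spread between its libraries, such as PF or SF, only at a lower mean than a stage with close libraries, such as M. With the ratio taken between stage means in its place, a choice made after the data were seen, 200 unigenes were kept, 177 of them members, and M was the next stage in 46.0%, SF in 33.0% and PF in 21.0%, with PF the lowest stage in 54.5%.

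Differences among M, SF and PF were tested with edgeR's quasi-likelihood test, in a single fit of all 8 libraries on 10822 unigenes, which included all 200 members. These contrasts do not hold JF, but the JF libraries enter the filter, the scaling and the shared spread of the fit. To be called, a unigene needed a change of over 1 in log2, in either direction, and an adjusted p (Benjamini-Hochberg) under 0.05. The rule limits the level of every library of M, SF and PF in a member, and so the size of these differences. Through the spread between libraries it also favours M over SF and PF, so the counts by direction are not independent of it, and the counts under the rule on stage means are given beside them. In all, 69 members (34.5%) were called in at least 1 of the 3 comparisons, beside 41.9% of all tested unigenes, and 131 in none.

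The comparison of males with parthenogenetic females had the most called members, and it also had the most calls over all tested unigenes. All but 1 of the called members were higher in males. In M vs PF, 39 members were called higher in M, which is 19.5% of the 200, beside 18.1% of all tested unigenes. Only 1 member (0.5%) was called higher in PF, beside 15.9% of all tested unigenes. The median log2 fold change was 0.51 in members, against -0.07 over all tested unigenes. The share called higher in M was near that of all tested unigenes, and the share called higher in PF was below its own. Both the rule and its form on stage means limit the level of PF in the unigenes kept, so this low share is not independent of them. Of the 200 unigenes kept by the rule on stage means, 34 were called higher in M and 2 higher in PF, with a median of 0.44. Without PF-2 and without M-1 the members called higher in PF were 3 and 2.

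The 4 members with the lowest adjusted p were all higher in M. Cluster-5789.4865 (115 and 122 CPM in M, 31.6 and 39.5 CPM in PF) had a log2 fold change of 1.83 ± 0.14 (SE, adjusted p = 0.000186 by edgeR). Cluster-5789.2755 had 38.6 and 39.0 CPM in M, against 12.2 and 10.2 CPM in PF, and a log2 fold change of 1.87 ± 0.15 (SE, adjusted p = 0.000191 by edgeR). Cluster-5789.5710 had 38.6 and 38.0 CPM in M, against 8.65 and 8.97 CPM in PF (log2 fold change 2.21 ± 0.20, SE, adjusted p = 0.000275 by edgeR). The groups were clearly separate in each of them, with replicates close to each other. Cluster-5789.8170 had 31.3 and 31.9 CPM in M and 2.96 and 4.19 CPM in PF, with 192 and 223 CPM in JF, and its log2 fold change was 3.25 ± 0.31 (SE, adjusted p = 0.000378 by edgeR). The single member called higher in PF was Cluster-5789.5143, with 6.50 and 6.75 CPM in M and 18.0 and 16.4 CPM in PF, a log2 fold change of -1.29 ± 0.21 (SE, adjusted p = 0.00252 by edgeR).

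**Figure D5:**
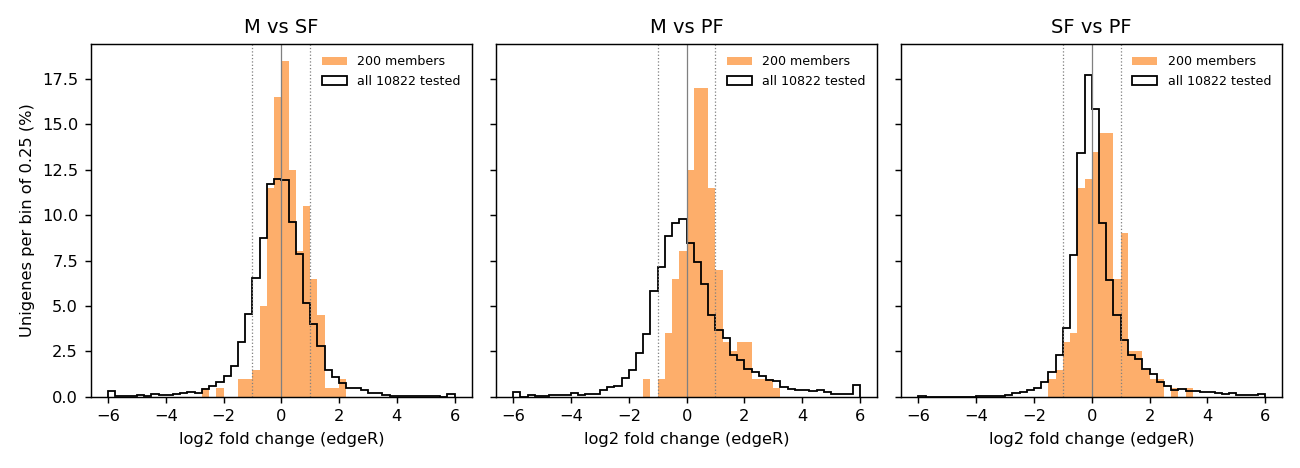
Log2 fold changes of M vs SF, M vs PF and SF vs PF (1 panel each) in equal bins, as the percent of the 200 members (filled) and of all 10822 tested unigenes (line). The end bins also hold all larger values, and dotted lines mark a 2-fold change. In M vs PF the median is 0.51 for members and -0.07 for all tested unigenes.

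Sexual females were likewise above parthenogenetic females in most called members. In SF vs PF, 26 members (13.0%) were called higher in SF, beside 9.98% of all tested unigenes, and 2 (1.0%) higher in PF, beside 4.84%. The median log2 fold change was 0.34 in members, against 0.02 over all tested unigenes. The rule on stage means gave 25 called higher in SF and 5 higher in PF, with a median of 0.26. Cluster-5789.4865 had 165 and 178 CPM in SF and 31.6 and 39.5 CPM in PF, a log2 fold change of 2.32 ± 0.15 (SE, adjusted p = 0.000562 by edgeR). Cluster-5789.6852 had the largest change of the named members, with 106 and 69.8 CPM in SF and 8.53 and 10.2 CPM in PF (log2 fold change 3.29 ± 0.29, SE, adjusted p = 0.00123 by edgeR). In both, the lower SF library was several times above the higher PF library. Cluster-5789.3319 had 20.0 and 19.1 CPM in SF and 7.65 and 9.96 CPM in PF (log2 fold change 1.21 ± 0.13, SE, adjusted p = 0.00194 by edgeR), and Cluster-5789.3321 had 7.63 and 7.79 CPM in SF and 2.80 and 3.67 CPM in PF (log2 fold change 1.31 ± 0.14, SE, adjusted p = 0.00205 by edgeR).

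The 2 members called higher in PF were Cluster-5789.1407 and Cluster-5789.3587. Cluster-5789.1407 had 6.22 and 8.02 CPM in SF, against 17.0 and 21.0 CPM in PF, and a log2 fold change of -1.37 ± 0.19 (SE, adjusted p = 0.00456 by edgeR). Cluster-5789.3587 had 2.26 and 1.78 CPM in SF, against 4.97 and 4.19 CPM in PF, and a log2 fold change of -1.13 ± 0.26 (SE, adjusted p = 0.0220 by edgeR). The call of Cluster-5789.3587 was lost without PF-1, without SF-2, without either male library and with the male libraries summed, and over all alternatives its log2 fold change was between -1.33 and -0.88 and its adjusted p between 0.0019 and 0.0872. Without SF-1, 7 members were called higher in PF, and without either male library 1 member.

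Between males and sexual females, most called members were higher in males. In M vs SF, 24 members (12.0%) were called higher in M, beside 10.2% of all tested unigenes, and 6 (3.0%) higher in SF, beside 11.9%. The median log2 fold change was 0.15 in members and -0.06 over all tested unigenes. With the rule on stage means 23 were called higher in M and 6 higher in SF, again with a median of 0.15. Without M-1 and without M-2 the median log2 fold change of members was 0.17 and 0.15. The number called higher in M fell whichever male library was left out, so it did not rest on 1 of them. It was 13 without SF-2, 12 without M-1 and 11 without M-2, when 985, 788 and 786 of all tested unigenes were called higher in M in place of 1101. Of all calls in M vs SF, 46.0% were higher in M, and 56.2% with DESeq2 size factors. In members the split was 24 to 6 and then 27 to 5.

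Cluster-5789.8347 had its highest level outside JF in males, with 667 and 479 CPM in JF, 156 and 156 CPM in M, 36.7 and 39.8 CPM in SF, and 56.3 and 86.5 CPM in PF. It differed between M and SF by 2.07 ± 0.21 in log2 (SE, adjusted p = 0.000746 by edgeR). Cluster-5789.5710, described above for M vs PF, had 11.7 and 8.31 CPM in SF and a log2 fold change of 1.97 ± 0.20 in M vs SF (SE, adjusted p = 0.000695 by edgeR), so males were separate from both adult female types. Cluster-5789.1966 had 16.3 and 18.3 CPM in M and 8.21 and 8.17 CPM in SF (log2 fold change 1.12 ± 0.13, SE, adjusted p = 0.00123 by edgeR). Cluster-5789.6721 had 132 and 131 CPM in M and 62.2 and 66.9 CPM in SF (log2 fold change 1.07 ± 0.16, SE, adjusted p = 0.00307 by edgeR). The changes of Cluster-5789.1966 and Cluster-5789.6721 were close to 2-fold, with no overlap between the libraries of M and SF.

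The opposite direction held the unigene with the largest change in M vs SF among the named members. Cluster-5789.226 had 50.1 and 44.1 CPM in JF, 1.84 and 1.33 CPM in M, 10.2 and 9.65 CPM in SF, and 2.72 and 1.81 CPM in PF, and the log2 change of M over SF was -2.59 ± 0.28 (SE, adjusted p = 0.000876 by edgeR). It was thus high in JF, intermediate in SF and low in both M and PF, and its JF mean was 29.7 times that of M. Cluster-5789.3168 had 3.09 and 3.33 CPM in M, against 8.48 and 9.21 CPM in SF (log2 fold change -1.42 ± 0.17, SE, adjusted p = 0.00125 by edgeR). Cluster-5789.6122 had 983 and 912 CPM in JF, 67.0 and 67.8 CPM in M, and 144 and 136 CPM in SF, and its log2 fold change of -1.01 ± 0.15 (SE, adjusted p = 0.00258 by edgeR) was at the threshold. It was between -0.88 and -1.07 over the alternatives and no longer called with DESeq2 size factors, with DESeq2, without PF-1 or without SF-1. Cluster-5789.5143 had 19.8 and 14.2 CPM in SF, a log2 fold change of -1.32 ± 0.21 in M vs SF (SE, adjusted p = 0.00375 by edgeR), and one of -0.999 without SF-1, just short of the threshold.

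The IDs gave 2 further properties that the rule did not use. Of the members, 187 carried the ID of the largest assembly cluster, which holds 10461 of all listed unigenes, and 13 (6.5%) came from 13 other clusters. Of all listed unigenes 5.88% were from other clusters, and of those with a JF mean of at least 5 CPM 3.42%. The 13 members had low levels, with JF means between 5.91 and 24.1 CPM. Cluster-7005.0 had 24.4 and 23.8 CPM in JF, against 6.51 and 6.55 CPM in M, 7.06 and 5.49 CPM in SF, and 2.72 and 4.19 CPM in PF. Cluster-5177.0 had 18.4 and 18.6 CPM in JF and between 2.48 and 4.25 CPM elsewhere, Cluster-5721.0 had 16.1 and 17.3 CPM in JF and between 2.71 and 4.81 CPM elsewhere, and Cluster-5821.0 had 17.1 and 16.5 CPM in JF and between 1.36 and 2.20 CPM elsewhere. The JF replicates of these 4 unigenes were close to each other and separate from all other libraries.

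Members also stood beside each other in the numbering of the largest cluster. A total of 18 members formed 8 runs of consecutive IDs. Of the 296 listed unigenes whose ID was next to that of a member, 18 (6.08%) were members themselves, beside 1.79% of all listed unigenes of the cluster. The runs of 3 were Cluster-5789.3319 to Cluster-5789.3321, with JF means of 121, 48.7 and 51.7 CPM, and Cluster-5789.3551 to Cluster-5789.3553, with 17.6, 152 and 142 CPM. Cluster-5789.6177, the most abundant member, was next to Cluster-5789.6178 (273 CPM in JF), and Cluster-5789.5142 (102 CPM) was next to Cluster-5789.5143 (163 CPM). Whether the unigenes of a run are related in sequence was not tested. Reads of near-identical unigenes can be split between them by the counting, so single values within a run are uncertain, and its members may not be independent of each other. In 36 members (18.0%) the estimated counts were whole numbers in all 8 libraries, to within 1e-06, beside 22.9% of all listed unigenes.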

How the data were processed

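Poly-A RNA of 8 pools (JF, M, SF and PF, 2 each) was sequenced as paired ends. The authors removed adapter, poly-N and low-quality reads, assembled the rest with Trinity and deposited an estimated count per unigene and library, without scaling. Aligner and counter: not given in the sources used here. CPM was the count divided by the column sum, times 1000000. For tests the values were rounded to integers. The main fit used edgeR 4.0.16 (limma 3.58.1, R 4.3.3) with TMM scaling, its filter on low counts by stage, stage as the only term and robust quasi-likelihood estimation, and p-values were Benjamini-Hochberg adjusted over all 10822 tested unigenes. The standard error was the log2 fold change divided by the square root of F. With 2 libraries per stage, the p-values measure the spread between pools, shared over the stages. That spread was not alike. Over unigenes with a JF mean of at least 5 CPM, the median absolute log2 ratio between replicates was 0.05 in M, 0.25 in SF and 0.28 in PF. The close male libraries enter the shared estimate. Standard errors and p-values may therefore understate the spread between female pools, also in SF vs PF. DESeq2 1.42.0 was an alternative. No JF contrast was tested, because the rule used it.

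The members and lists were chosen with earlier results of these data known. Named were the 12 members with the highest ratio, the 6 with the highest JF mean, the 2 on each side of the end of the list, up to 4 called members per comparison and direction with the lowest adjusted p, the 3 with the largest difference between JF libraries, and 4 outside the largest assembly cluster. Cluster-5789.6178 and Cluster-5789.5142 and the runs were named after their values were seen. The alternatives were other scalings, filters, sets of libraries and tools, the male libraries summed, a ratio of stage means in the rule (added after the data were seen), the replicate number as a block, and each library left out.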

Additional observations from a re-analysis of the deposited data

Results flagged for a closer look

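The difference of M from SF and that of M from PF were called unequal in 28 members (14.0%), beside 14.8% of all tested unigenes. The number was thus near that of unigenes in general. The test of this inequality is SF vs PF, called at over 2-fold and an adjusted p under 0.05. Members without a call are not thereby shown to be equal. Of the 28, 26 (13.0% of the 200 members) were higher in SF and 2 (1.0% of the 200) higher in PF, beside 9.98% and 4.84% of all tested unigenes. Cluster-5789.226 was lower in M than in SF (log2 fold change -2.59), while its difference between M and PF did not pass the test (log2 fold change -0.44, edgeR adjusted p = 0.226).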

How the results depend on the processing

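The list of members depended on the rule in part. With 1 library left out, between 171 and 198 of the 200 members were among the kept unigenes, and between 464 and 608 unigenes had a ratio of at least 2 (465 with all libraries). TMM scaling, DESeq2 size factors and a minimum of 20 CPM in JF kept 188, 181 and 156 members, and a minimum ratio of 3 left 161 unigenes. With the male libraries summed, the members called higher in M in M vs SF were 13 in place of 24. The members called higher in PF in M vs PF were 2 in place of 1 with library size only, with DESeq2 and with the rule on stage means, which was added after the data were seen. Those called higher in PF in SF vs PF, 2 in the edgeR fit, were 4 with library size only, 6 with DESeq2, 5 with the rule on stage means and 1 with the male libraries summed.

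With each library left out, the members called higher in M were between 11 and 30 in M vs SF and between 33 and 48 in M vs PF, and those higher in SF in SF vs PF between 24 and 37. The members called in the opposite direction were between 4 and 6, between 1 and 3, and between 1 and 7. A fit of the 6 libraries of M, SF and PF alone gave 21 and 6 calls in M vs SF, 39 and 1 in M vs PF, and 26 and 2 in SF vs PF. In M vs SF, that fit called 1069 and 1258 of all 10747 tested unigenes. The replicate number as a block gave 22 and 6 calls in M vs SF, 41 and 1 in M vs PF, and 27 and 2 in SF vs PF. The correlation of replicate deviations between stages was between -0.03 and 0.12. It cannot show whether pools with the same number shared a beaker or a batch, which no source gives. Of 22 calls of single members that were followed over the alternatives, 19 held under all 16 alternatives of the fit. The call of Cluster-5789.6852 in M vs PF was not among the 22.

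In M vs SF, the median over all tested unigenes was -0.11 with library size only and 0.06 with DESeq2 size factors on the log2 scale. In M vs PF these medians were -0.16 and 0.00. The median of members lay between 0.12 and 0.28 in M vs SF and between 0.42 and 0.58 in M vs PF, and was above that of all tested unigenes in each scaling. The lowest count of a member in any library was 8, and unigenes without reads in some library were not analysed here.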
